A study of Mus musculus with 6 samples.

Results

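The mitochondrial beta-oxidation spiral was followed through 10 genes in mouse liver RNA, chosen by name: the acyl-CoA dehydrogenase genes Acadvl, Acadl, Acadm and Acads, the hydratase gene Echs1, the trifunctional protein genes Hadha and Hadhb, the hydroxyacyl-CoA dehydrogenase gene Hadh, the thiolase gene Acaa2 and the electron transfer gene Etfdh. All 10 were present among the 16123 genes of the deposited table, once each, and all 10 were among the 10266 genes with a mean of at least 1 FPKM (fragments scaled to transcript length and library size) that were tested. The study asked how moderate exercise acts on liver metabolism. Its exercise group ran 22 km per mouse over 6 weeks, with liver collected 24 h after training ended, and its sedentary group was given no treadmill training. Each group had 3 libraries, described in the design text as 3 healthy adult mice per group. The labels used here name no strain, sex or exact age.

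Beta-oxidation shortens an acyl-CoA by an acetyl unit in a cycle of 4 reactions inside the mitochondrion: a flavin-dependent dehydrogenation, a hydration, an NAD-dependent dehydrogenation and a thiolytic cleavage. Electrons of the first reaction pass through the electron transfer flavoprotein and its ubiquinone oxidoreductase, the product of Etfdh, into the respiratory chain. In liver the pathway supplies energy for glucose production and acetyl-CoA for ketone bodies, and several of its genes are known targets of the fatty acid receptor PPAR-alpha.

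Libraries held between 17941303 and 18371949 counts, and the members had 2423 to 18268 counts in a library. Scaling factors by TMM (trimmed mean of M-values) were 0.972 to 0.977 in sedentary and 1.03 in exercise libraries, so TMM-scaled fold changes come out below those of the deposited FPKM. Over all tested genes 1961 were called higher and 1952 lower in exercise by edgeR's quasi-likelihood test at an adjusted p of 0.05, together 38.1% of those tested. This split moved to 3537 against 1203 without TMM, 2583 against 1575 when the 20 most abundant genes were kept out of the totals, 3716 against 915 on log2(TPM + 1) and 2868 against 1099 on log2(FPKM + 1). The 7 measured hepatocyte markers summed to 70200 to 71500 FPKM in sedentary and 70700 to 71300 in exercise libraries. Macrophage markers summed to 397 to 409 and 339 to 344 FPKM, red cell markers to 381 to 393 and 335 to 352, endothelial markers to 103 to 104 and 113 to 123, stellate cell markers to 81.0 to 83.5 and 104, cholangiocyte markers to 63.0 to 65.6 and 32.7 to 34.6, and pancreatic acinar markers to 17.0 to 17.6 and 8.17 to 8.68. Skeletal muscle, a tissue rich in these enzymes, had 5 measured markers that summed to between 0.34 and 1.61 FPKM in any library, and adipocyte markers summed to at most 0.15. In whole tissue, fewer cells of a type and less RNA per cell cannot be told apart, and the part of cell composition in the changes below was not tested.

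Of the 10 spiral genes 9 rose in exercise livers, each by a small amount, from 8.97% for Hadh to 19.3% for Acadm by TMM-scaled counts. Among all tested genes 19.1% were called higher and 19.0% lower. Echs1 did not pass (edgeR adjusted p = 0.533). None of the 10 fell, in any of the 20 fits run, with edgeR, limma or DESeq2, and with edgeR 0 were lower at an unadjusted p under 0.05. The median log2 fold change was 0.15 over the members and -0.000622 over all tested genes. In the deposited FPKM the exercise and sedentary libraries did not overlap for the same 9 genes, against 36.6% of all tested genes that were without overlap and higher in exercise. On TMM-scaled counts, too, 9 members did not overlap, against 23.3% of all tested genes.

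**Figure D1:**
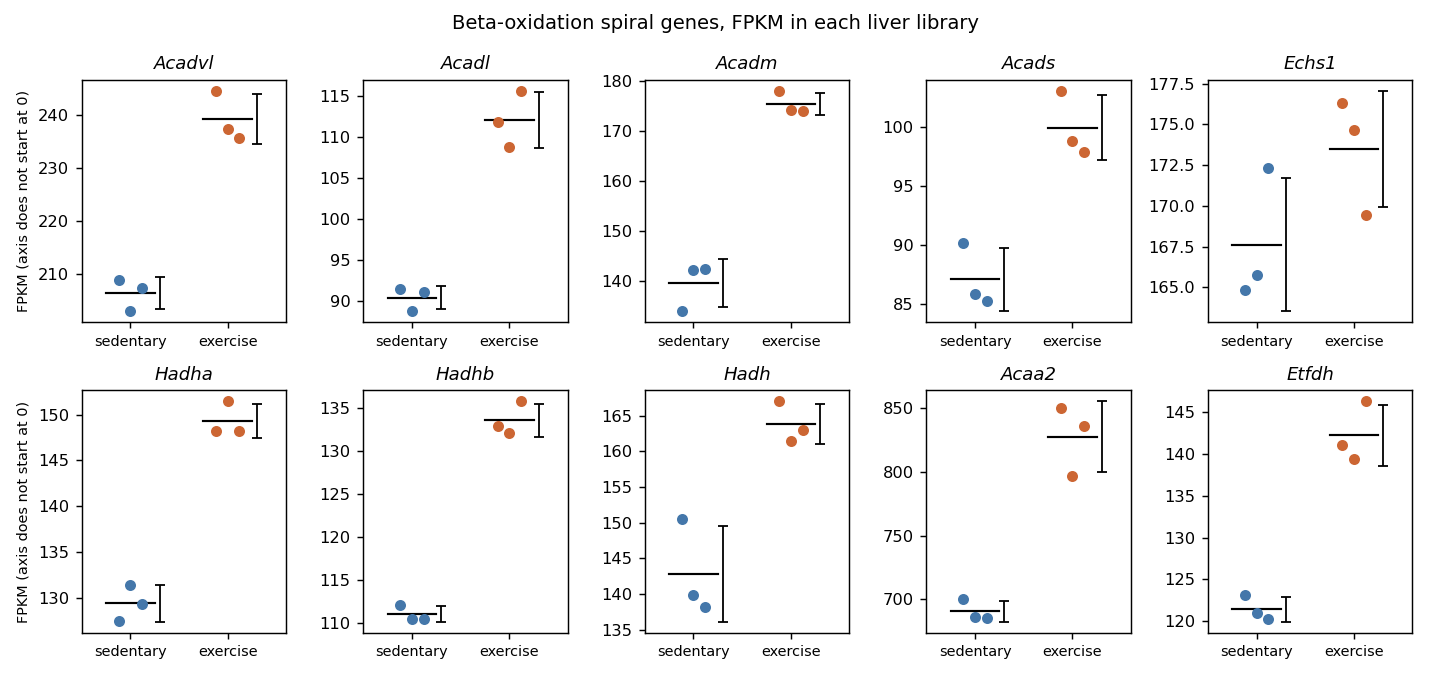
Deposited FPKM of the 10 spiral genes in each library, with sedentary libraries in blue, exercise libraries in orange, horizontal lines at the group means and bars of 1 SD (n = 3 per group). The vertical axes do not start at 0. For 9 genes every exercise library lies above every sedentary library, and for Echs1 the groups overlap.

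The acyl-CoA dehydrogenases carry out the first reaction and differ in the chain length they prefer, from very long chains for the product of Acadvl to short chains for that of Acads. Acadvl, whose enzyme is bound to the inner membrane, stood at 209, 203 and 207 FPKM in the sedentary and 245, 237 and 236 FPKM in the exercise libraries. All exercise libraries were above all sedentary ones. Its log2 fold change was 0.14 (SE 0.0229, edgeR adjusted p = 2.8e-06).

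Acadl, the long-chain member, went from 91.5, 88.8 and 91.1 FPKM in sedentary to 111.8, 108.9 and 116 FPKM in exercise libraries. The lowest exercise library was exercise replicate 2, still well above the sedentary range. The log2 fold change was 0.24 (SE 0.029, edgeR adjusted p = 3.51e-09).

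Acadm encodes the medium-chain enzyme, whose inherited loss in people makes fasting dangerous. It stood at 134, 142 and 143 FPKM in the sedentary libraries, sedentary replicate 1 being the low value, and at 178, 174 and 174 FPKM in the exercise libraries. With a log2 fold change of 0.25 (SE 0.0257, edgeR adjusted p = 1.64e-11) it had the largest rise of the 10 genes and lay at a percentile of 91.5 among all tested fold changes.

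Acads, the short-chain member, had the lowest level of the 10 genes in both groups, at 90.2, 85.8 and 85.3 FPKM in sedentary and 103, 98.9 and 97.9 FPKM in exercise libraries. Replicate 1 was the highest library of each group, and the groups did not overlap. Its log2 fold change was 0.12 (SE 0.03, edgeR adjusted p = 0.000755). The 95% intervals of the long-chain and medium-chain genes, 0.18 to 0.29 for Acadl and 0.20 to 0.31 for Acadm, reached higher than those of Acadvl (0.09 to 0.18) and Acads (0.06 to 0.19). The differences between these genes were not tested.

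Echs1 encodes the short-chain enoyl-CoA hydratase of the second reaction, which also serves valine breakdown. It stood at 165, 166 and 172 FPKM in the sedentary and 176, 175 and 169 FPKM in the exercise libraries. Exercise replicate 3 lay below sedentary replicate 3, so the groups overlapped. Its log2 fold change was -0.02 with a 95% interval of -0.08 to 0.03, and the upper end lay below the lower end of every other member's interval, the nearest being 0.06 for Acads. The direction of Echs1 depended on the scaling. It was 0.05 without TMM (adjusted p = 0.093) and 0.08 on log2(TPM + 1), where it passed (limma adjusted p = 0.0298) beside 36.2% of all tested genes called higher, while the median of all tested genes on that scale was 0.0956. In each of the 20 fits run, Echs1 lay below the median of all tested genes and the other 9 spiral genes lay above it.

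Hadha and Hadhb encode the alpha and beta subunits of the trifunctional protein, a membrane-bound complex that carries out the last 3 reactions on long chains. Hadha stood at 127, 131 and 129 FPKM in the sedentary and 148, 151 and 148 FPKM in the exercise libraries, with a log2 fold change of 0.13 (SE 0.0237, edgeR adjusted p = 1.23e-05). Hadhb stood at 112.1, 110.6 and 110.5 FPKM in the sedentary and 133, 132 and 136 FPKM in the exercise libraries, with a log2 fold change of 0.19 (SE 0.0262, edgeR adjusted p = 3.8e-08). Neither gene had overlapping groups. The ratio of Hadha to Hadhb FPKM was 1.14, 1.19 and 1.17 in sedentary and 1.12, 1.15 and 1.09 in exercise libraries, so that the ranges of the ratio overlapped.

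The Hadha and Hadhb genes lie head to head on chromosome 5 in GRCm38.p6, Hadha at 30119423 to 30154980 on the minus strand and Hadhb at 30155253 to 30184593 on the plus strand. In the RefSeq annotation 272 bases separate their starts. The 250 bases before the start of Hadha, chr5:30154981-30155230, are shown on the minus strand of that build, ending at the base before its start, because both subunit genes, which rose together, face this interval. Capitals mark a GC box, GGGCGG on either strand, whose first base lies 188 bases before the start of Hadha. On the plus strand the same 6 bases begin 90 bases before the start of Hadhb.
Hadha: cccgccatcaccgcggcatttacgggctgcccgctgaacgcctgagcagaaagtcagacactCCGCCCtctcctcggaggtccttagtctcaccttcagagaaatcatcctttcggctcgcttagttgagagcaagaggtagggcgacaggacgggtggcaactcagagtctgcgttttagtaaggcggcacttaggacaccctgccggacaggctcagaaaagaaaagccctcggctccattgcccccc

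Hadh encodes the dehydrogenase of the third reaction for medium and short chains. It stood at 151, 139.9 and 138 FPKM in the sedentary and 167, 161 and 163 FPKM in the exercise libraries. Sedentary replicate 1 was high, and its TMM-scaled counts had the widest spread among the members, a coefficient of variation of 4.79% in the sedentary group. The groups still did not overlap, and the log2 fold change was 0.12 (SE 0.0281, edgeR adjusted p = 0.000369).

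Acaa2, the thiolase gene of the fourth reaction, was the most abundant of the 10 genes, at 699.9, 686 and 685 FPKM in the sedentary and 850.2, 797 and 836 FPKM in the exercise libraries. Exercise replicate 2 was the lowest of its group and remained above all sedentary libraries. The log2 fold change was 0.19 (SE 0.0215, edgeR adjusted p = 5.25e-10). Acaa2 alone made up 36.4% to 37.7% of the summed FPKM of the members in a library.

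Etfdh encodes the iron-sulphur flavoprotein of the inner membrane that hands the electrons of the first reaction to ubiquinone. It stood at 123, 121 and 120.2 FPKM in the sedentary and 141, 139 and 146 FPKM in the exercise libraries, without overlap. Its log2 fold change was 0.15 (SE 0.0258, edgeR adjusted p = 3.61e-06).

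**Figure D2:**
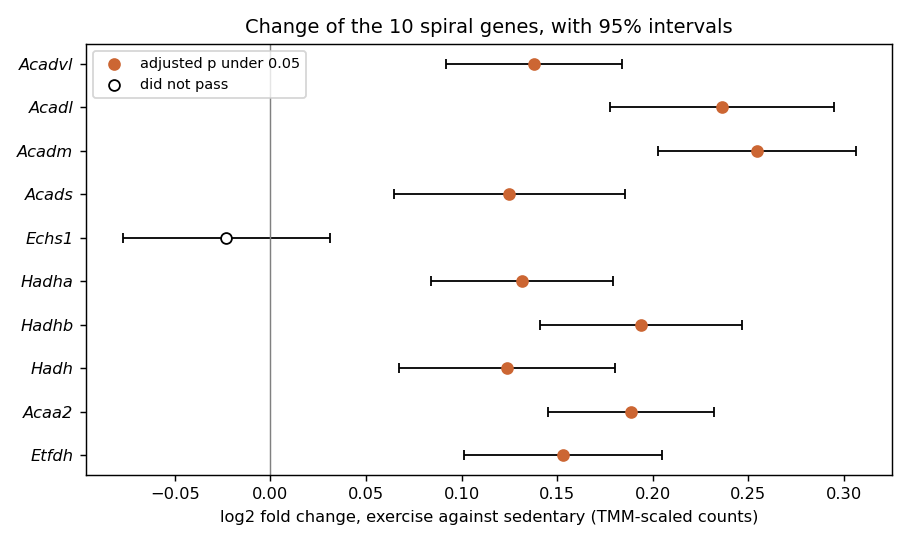
Log2 fold change of each spiral gene in exercise against sedentary livers from TMM-scaled counts (horizontal axis), with 95% intervals from 3 libraries per group. The intervals of 9 genes, in orange, lie above 0, and that of Echs1, the open circle, spans 0. The fold changes of the 9 run from 0.12 for Hadh to 0.25 for Acadm.

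Summed over the 10 genes, the spiral took 0.291%, 0.288% and 0.288% of the total count of a sedentary library and 0.345%, 0.334% and 0.342% of an exercise library. Exact binomial 95% intervals, which cover counting error only, ran from 0.285% to 0.293% over the sedentary and from 0.332% to 0.348% over the exercise libraries. These shares are not TMM-scaled. Without TMM the median log2 fold change was 0.0771 over all tested genes and 0.2234 over the members, against 0.1456 for the members with TMM. The order of levels by FPKM, a scale that allows for transcript length, was almost the same in both groups. In sedentary livers it ran Acaa2, Acadvl, Echs1, Hadh, Acadm, Hadha, Etfdh, Hadhb, Acadl and Acads. There the ranges over libraries overlapped between the neighbours Hadh and Acadm and between Acadl and Acads. In exercise livers Acadm stood between Acadvl and Echs1, with a range that overlapped that of Echs1, and Hadh followed Echs1. The other genes kept the same order.

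Libraries of 1 group were close to each other for these genes. The coefficient of variation of TMM-scaled counts within a group had a median of 1.65% over the 20 combinations of gene and group, where counting noise alone has a median of 1.51%. The p-values given here measure the spread between these libraries, which are labelled only as separate samples. When edgeR was given an assumed biological variation of 0.1 in place of the estimated one, 0 of the 10 genes passed, 2 were higher at an unadjusted p under 0.05, and 2.58% of all tested genes were called higher. In edgeR's test against a 1.2-fold change 0 passed, 0 had an unadjusted p under 0.05, and 2.33% of all tested genes were called higher. By DESeq2 the same 9 genes passed, beside 12.4% of all tested genes called higher.

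**Figure D3:**
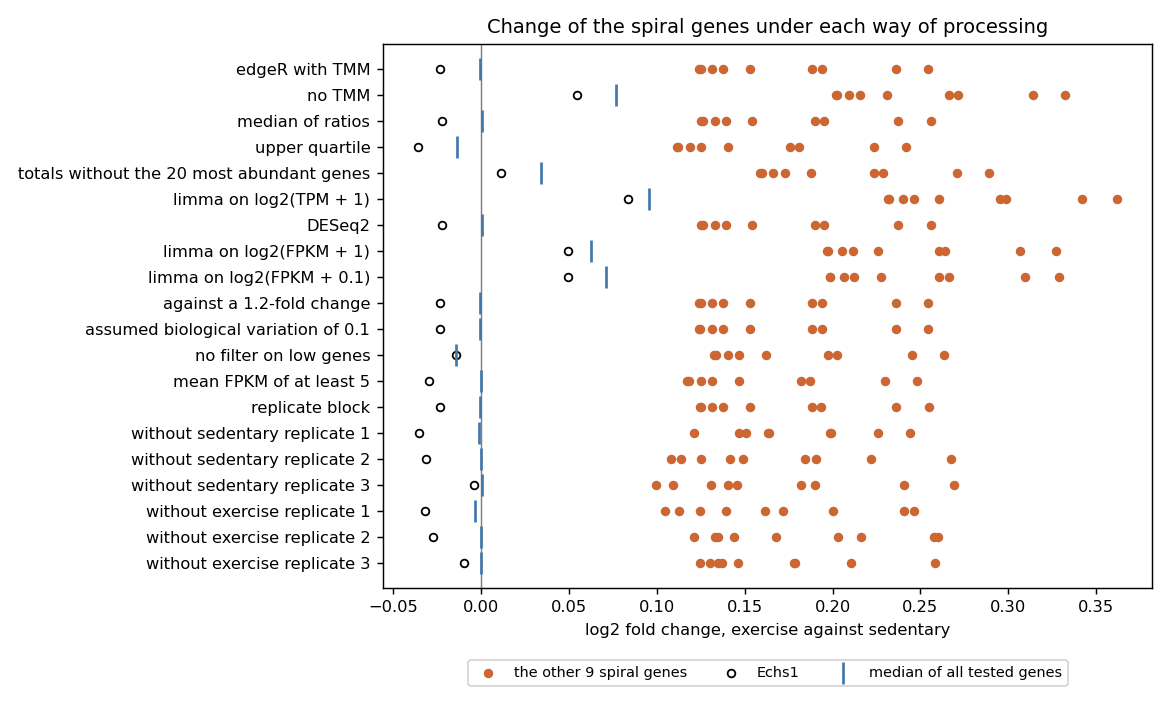
Log2 fold change of the spiral genes (horizontal axis) in each of the 20 fits run, with Echs1 as open circles, the other 9 genes in orange and the median of all tested genes as blue bars. Scaling moves all points together, by up to 0.0962 for the median of all genes, and the 9 genes stay above that median in each fit.

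Of 10 tested genes of electron transfer and auxiliary matrix enzymes, 7 rose and 1 fell, with a median log2 fold change of 0.18. The count was 9 higher and 0 lower without TMM, and 8 and 0 by limma on log2(FPKM + 1). Against a 1.2-fold change it was 1 higher and 0 lower, and 0 and 0 at an assumed biological variation of 0.1. Those stricter settings called 2.33% and 2.58% of all tested genes higher. Over all tested genes 19.1% were called higher and 19.0% lower with TMM. Of all 10266 tested genes 3537 were higher and 1203 lower without TMM, and 2868 and 1099 by limma on log2(FPKM + 1). Eci2 and Eci1, isomerases that shift double bonds of unsaturated acyl chains, had log2 fold changes of 0.34 and 0.22 (edgeR adjusted p = 1.66e-14 and 9.37e-07). Acat1, the acetoacetyl-CoA thiolase, had 0.26 (adjusted p = 7.34e-13), and the thioesterase genes Acot13 and Acot2 had 0.21 and 0.47. Acot2, at 1.31 and 1.92 FPKM, did not pass without sedentary replicate 3 (adjusted p = 0.0907) or without exercise replicate 1 (0.0946). By DESeq2 it did not pass either (adjusted p = 0.117). Decr1, the dienoyl-CoA reductase gene, had 0.11. The gene that fell was Acad9, better known for assembling respiratory complex I, at -0.18 (adjusted p = 0.00178), and the call was lost without TMM (0.07) and by limma (0.101 to 0.251). Its counts were not whole. Beyond the 4 with the smallest p, the genes of this list were named after their values were seen.

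Of the 3 genes of the electron route, Etfa and Etfdh rose and Etfb did not pass. The difference between them was not tested. Etfa, the alpha subunit of the electron transfer flavoprotein, stood at 208, 211 and 208 FPKM in the sedentary and 253, 249 and 235 FPKM in the exercise libraries (log2 fold change 0.16, SE 0.0259, edgeR adjusted p = 1.78e-06). Etfb, the beta subunit, stood at 442, 447 and 426 FPKM in the sedentary and 488, 436 and 449.5 FPKM in the exercise libraries. Its groups overlapped, exercise replicate 2 lying inside the sedentary range, and its log2 fold change was -0.01 (SE 0.0288, adjusted p = 0.905). Without TMM it was 0.07 and passed (adjusted p = 0.0387). The ratio of Etfa to Etfdh FPKM ranged from 1.69 to 1.75 in sedentary and 1.61 to 1.79 in exercise libraries. That of Etfb to Etfdh was 3.54 to 3.70 and 3.07 to 3.46, without overlap. Such a split was not particular to Etfb. Acadm to Acadvl, for example, ranged from 0.642 to 0.701 in sedentary and 0.728 to 0.738 in exercise libraries. How often ratios separate over all genes was not tested.

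Etfbkmt, which encodes a methyltransferase that modifies the beta subunit of the flavoprotein, changed more than any member of the spiral. It had 532, 625 and 548 counts in the sedentary and 1008, 957 and 1019 counts in the exercise libraries. The groups were far apart, and the log2 fold change was 0.75 (SE 0.0493, edgeR adjusted p = 9.95e-18). In FPKM it went from 16.4 ± 1.73 to 33.4 ± 0.996 (SD, n = 3), a larger ratio than that of the counts. The transcript length implied by its counts, FPKM and library totals was 1837 to 1998 bases in sedentary and 1639 to 1679 bases in exercise libraries. For the 10 spiral genes that implied length varied by at most 1.02% between libraries. Of the 6 tested genes for FAD supply and control of the flavoprotein, Etfbkmt alone passed, beside 38.1% of all tested genes. Rfk, Slc25a32 and Etfrf1, for which the log2 fold changes were -0.08, 0.07 and -0.05, did not (adjusted p = 0.284, 0.372 and 0.497), although Slc25a32 passed without TMM (0.0382).

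Acyl-CoA dehydrogenases outside the spiral include enzymes of branched-chain and amino acid breakdown. Of 7 tested, 2 rose and 1 fell, with a median of 0.02, beside 19.1% higher and 19.0% lower among all tested genes. In this list 4 were higher and 0 lower without TMM and by limma on log2(FPKM + 1). Those settings called 3537 and 2868 of all 10266 tested genes higher. Acad11 went from 106.6 ± 2.85 to 123 ± 1.52 FPKM (SD, n = 3, log2 fold change 0.14, edgeR adjusted p = 1e-05). Acadsb had 0.09 (adjusted p = 0.0174), a call lost when sedentary replicate 1 (0.0992), sedentary replicate 3 (0.0601) or exercise replicate 1 (0.124) was left out. DESeq2 did not call Acadsb (adjusted p = 0.0759). Acad12, at 3.06 and 2.65 FPKM with counts that were not whole, had -0.29 (adjusted p = 0.0478). It did not pass without any of the 3 sedentary libraries (0.0647 to 0.136), exercise replicate 2 (0.164) or exercise replicate 3 (0.192). Nor did it pass by DESeq2 (adjusted p = 0.203), by limma (0.141 to 0.193) or by edgeR without TMM (0.14). Acad8 had 0.08 and did not pass (adjusted p = 0.0832), but did without sedentary replicate 1 (0.0339), without TMM (6e-04), with the 20 most abundant genes kept out of the totals (0.0119) and by limma (0.00232 to 0.00803).

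Of 16 genes that deliver acyl groups to the spiral, 10 rose and 3 fell (median 0.12), and on log2(TPM + 1) 12 were higher and 1 lower. Among all tested genes 19.1% rose and 19.0% fell, and on log2(TPM + 1) 36.2% were higher. Against a 1.2-fold change 1 of the 16 was higher and 1 lower, as at an assumed biological variation of 0.1. Of all 10266 tested genes those settings called 239 and 265 higher and 414 and 457 lower. Crat, the carnitine acetyltransferase, had a log2 fold change of 0.58, Slc25a20, the carrier that brings acylcarnitines across the inner membrane, 0.28, Acsl1, the acyl-CoA synthetase, 0.21, and Slc27a2, a synthetase and transporter of very long chains, 0.18 (edgeR adjusted p between 2.23e-13 and 2.15e-10). The 3 that fell, named after their values were seen, were Acsl4 (-0.38), Cpt1a (-0.14), the entry step of the shuttle, and Acsm1 (-0.12). Cpt2, the inner membrane carnitine palmitoyltransferase, had 0.08 (adjusted p = 0.0398) and was no longer called when sedentary replicate 2 (0.196), sedentary replicate 3 (0.0826) or any of the 3 exercise libraries (0.0616 to 0.0843) was left out. DESeq2 did not call Cpt2 (adjusted p = 0.134). Cpt1a did not pass by limma on log2(FPKM + 1) (adjusted p = 0.122), nor did Acsm1 (0.159).

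In peroxisomes, where a parallel spiral shortens very long chains, 3 of 14 tested genes rose and 2 fell, with a median of 0.02. These counts stand beside 19.1% higher and 19.0% lower among all tested genes. Acaa1b rose from 463 ± 0.985 to 768 ± 7.81 FPKM and Ehhadh from 94.9 ± 0.128 to 152 ± 2.90 FPKM (SD, n = 3), with log2 fold changes of 0.66 and 0.60 (edgeR adjusted p = 8.91e-31 and 1.97e-26). Counts of Acaa1b were not whole in at least 1 library, and its split from near-identical copies is uncertain. Abcd3, a transporter of acyl-CoA, had 0.14 (adjusted p = 7.82e-07). Abcd2, among the genes that fell, was at 1.31 and 1.09 FPKM and had -0.34 (adjusted p = 0.0129). This call was lost when sedentary replicate 2 (0.071), exercise replicate 1 (0.0623) or exercise replicate 2 (0.0571) was left out. It was also lost by DESeq2 (adjusted p = 0.0954) and limma (0.128 to 0.175). Without TMM the count of this list was 9 higher and 2 lower, with a median of 0.09, and by limma on log2(FPKM + 1) it was 7 and 0. All 10266 tested genes then had 3537 higher, with a median of 0.0771, without TMM, and 2868 higher by that limma fit.

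Of 19 other tested genes known as PPAR-alpha targets, 14 rose and 2 fell (median 0.32), beside 19.1% and 19.0% of all tested genes. By DESeq2 12 were higher and 1 lower, beside 12.4% of all tested genes called higher. Against a 1.2-fold change 8 were higher and 0 lower, and 7 and 0 at an assumed biological variation of 0.1. Those settings called 2.33% and 2.58% of all tested genes higher. The largest changes among these targets were far above those of the spiral. Cyp4a14 and Cyp4a10, which hydroxylate fatty acids at the chain end, had log2 fold changes of 3.12 and 1.63, and the thioesterase gene Acot1 had 0.98. Fgf21, a hepatic hormone gene named after its values were seen, had 2.01 at the low levels of 0.92 and 3.91 FPKM (edgeR adjusted p = 2.08e-08). Its spread between libraries and its call under the alternative settings were not examined. Aldh3a2, a fatty aldehyde dehydrogenase, had 0.34 (edgeR adjusted p = 1.6e-15). Of the 2 that fell, Fitm1 had -0.28 (adjusted p = 0.000641) and Pdk4 -0.34 (0.00893). Pdk4 did not pass without sedentary replicate 2 (0.0654) or exercise replicate 1 (0.0761). It was also not called by DESeq2 (adjusted p = 0.0753) or limma (0.0674 to 0.101). Counts of Cyp4a10 and Acot1 were not whole in at least 1 library.

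Of 21 tested regulators of these pathways, 3 rose and 8 fell by TMM-scaled counts (median 0.01). This balance rested on the scaling, with 8 higher and 6 lower without TMM, 8 and 3 on log2(TPM + 1) and 5 and 5 by limma on log2(FPKM + 1). Among all tested genes 19.1% were higher and 19.0% lower with TMM, and 3537 and 1203 of 10266 without it. Their counts were 3716 and 915 on log2(TPM + 1), and 2868 and 1099 by limma on log2(FPKM + 1). The receptor gene Ppara itself had 4269, 4192 and 4260 counts in the sedentary and 4483, 4514 and 4411 counts in the exercise libraries. Its log2 fold change was 0.02 (SE 0.0253, edgeR adjusted p = 0.587), and 0.10 without TMM, where it passed (0.00141). Ppargc1a, the PPAR coactivator, had only 104 to 116 counts in sedentary and 108 to 130 counts in exercise libraries (log2 fold change 0.09, adjusted p = 0.559). Those that rose were Hnf4a, a hepatocyte transcription factor (0.27), Sirt3, the mitochondrial deacylase (0.25), and Med1 (0.14). The call of Med1 was lost on leaving out any 1 of sedentary replicate 1 (0.0725), replicate 2 of that group (0.0741), exercise replicate 1 (0.0598) and replicate 3 of that group (0.0789). It was also lost by DESeq2 (adjusted p = 0.143). Lpin1, a phosphatase that also acts as a nuclear coactivator, had -0.42 (adjusted p = 2.41e-13).

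Genes of mitochondrial content and the citric acid cycle, taken as a view of the organelle beyond fatty acids, numbered 28, of which 4 rose and 3 fell (median -0.0041). Among all tested genes 19.1% rose and 19.0% fell, with a median of -0.000622. Sdhb had a log2 fold change of 0.15, Idh3b 0.11, Cs, citrate synthase, 0.10 and the chaperone gene Hspa9 0.09. Letm1, Dlst and Fh1 had -0.16, -0.11 and -0.08. Cs did not pass without sedentary replicate 2 (edgeR adjusted p = 0.0607), nor Fh1 without sedentary replicate 1 (0.146) or exercise replicate 2 (0.0952). DESeq2 did not call Fh1 (adjusted p = 0.0973). The count of the list depended on the scaling, with 13 higher and 0 lower without TMM (median 0.07), where the spiral had 9 higher and a median of 0.22. On that scale 3537 of all 10266 tested genes were higher and 1203 lower, with a median of 0.0771.

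**Figure D4:**
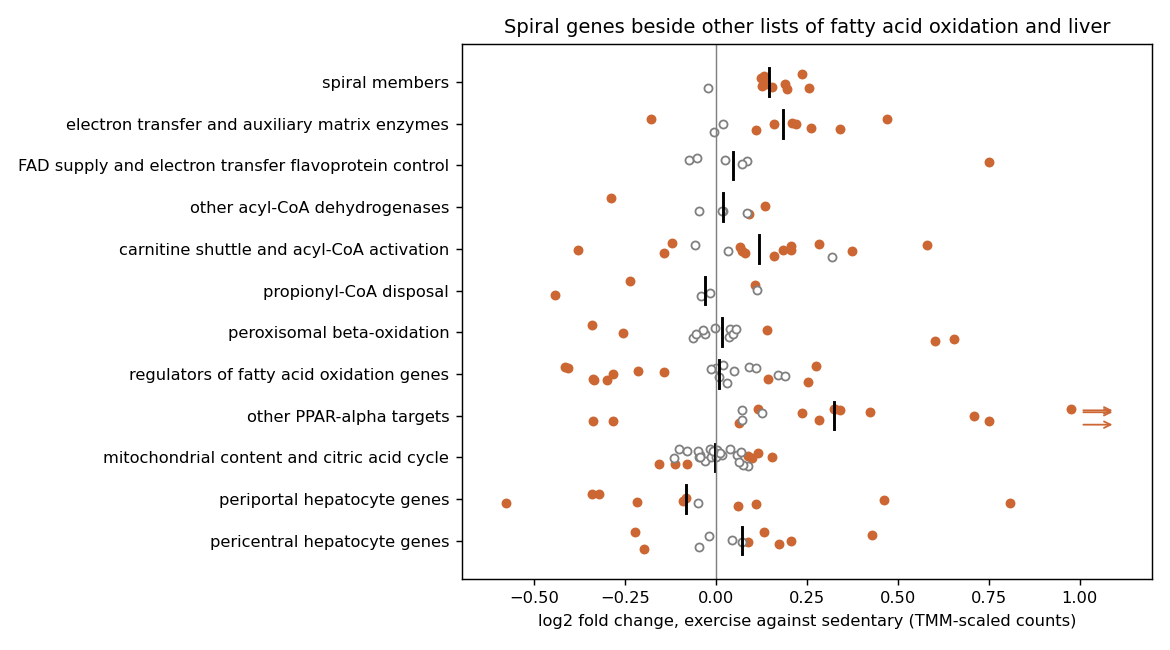
Log2 fold change of every tested gene of each list (horizontal axis, from TMM-scaled counts), in orange where the adjusted p was under 0.05 and open where it was not, with black bars at the list medians. The arrows at the right stand for Cyp4a14, Cyp4a10 and Fgf21, which lie beyond the axis. The spiral members lie close together, from -0.02 to 0.25, and their median of 0.15 compares with -0.0041 for mitochondrial content and the citric acid cycle.

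Disposal of propionyl-CoA, the end product of odd chains, had 1 of 6 genes higher and 2 lower, with a median of -0.03. Without TMM 2 were higher and 2 lower, with a median of 0.05. All tested genes had 19.1% higher and 19.0% lower with TMM, and a median of 0.0771 without it. Mmab and Mmaa, which handle the cobalamin cofactor, had log2 fold changes of -0.44 and -0.24 (edgeR adjusted p = 4.75e-09 and 0.00306), the latter not passing by limma on log2(FPKM + 1) (0.125). Pcca had 0.11 (0.0129) and did not pass without sedentary replicate 3 (0.0547) or exercise replicate 2 (0.0714). By DESeq2 it did not pass either (adjusted p = 0.0734). Mcee had 0.11 and did not pass (0.131), but did without exercise replicate 2 (0.0454), without TMM (0.00714), with the 20 most abundant genes kept out of the totals (0.0417) and by limma (0.0148 to 0.0337). Beta-oxidation is stronger near the portal vein, and genes of that zone had 4 of 11 members higher (Etnppl, Pck1, Hsd17b13 and Ass1) and 6 lower, among them Aldh1b1 and Sds, with a median of -0.08. On log2(TPM + 1) 4 were higher and 4 lower, with a median of 0.02. Genes of the pericentral zone had 5 of 11 higher (Glul, Cyp2e1, Slc1a2, Axin2 and Rgn) and 2 lower (Oat and Lect2), with a median of 0.07, and on log2(TPM + 1) 7 were higher and 1 lower. For either zone the shares of all tested genes were 19.1% higher and 19.0% lower, and 36.2% higher on log2(TPM + 1).

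The tested genes outside the spiral whose log2(FPKM + 1) followed the mean standardised profile of the members most closely over the 6 libraries were Coq8a, Cyp2c67, Dpys, Ppp1r10 and Klhl25, each with Pearson's r of at least 0.9988. Coq8a, which encodes a kinase-like protein needed for ubiquinone synthesis, went from 110.1 to 136 FPKM. These libraries form 2 groups, so a correlation over them mostly follows the difference between the groups.

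The promoter windows of the RefSeq table (GRCm38.p6, 250 bases before to 50 after a gene's start) were searched on both strands for letters bound by regulators of this pathway. Windows were matched for 9 of the 10 members, all but Acaa2. The exact direct repeat of AGGTCA with a spacer of 1 base, the form bound by PPAR-alpha with its partner, was in none of the 9 and in 0.0396% of all 32851 windows. With up to 2 mismatches it was, overlapping the AGGTCA there, in the window of Echs1 and in 3.86% of all windows. The single AGGTCA, part of that repeat, was in the windows of Acadm, Acadvl and Echs1 and in 16.3% of all windows. The palindromic site of nuclear respiratory factor NRF1 was in that of Etfdh and in 0.971% of all windows. The GC box GGGCGG was in 7 of the 9 and in 35.7% of all windows. That share was not matched for base composition. In the 250 bases before the start, members had 49.6% to 68.0% G or C, beside a median of 52.4% over all windows. TCAAGGTCA, CCGGAAGT and TATAAA were in none of the 9 and in 0.423%, 3.89% and 13.6% of all windows. No match says only that these letters are not in this window.

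The 250 bases before the start are shown for Acadm, the gene with the largest rise, for Etfdh, and for Echs1, the gene that did not pass, each on the minus strand of GRCm38.p6. They lie at chr3:153944644-153944893, chr3:79628768-79629017 and chr7:140116422-140116671. Capitals mark AGGTCA on either strand in Acadm and Echs1, the NRF1 motif in Etfdh, and GGGCGG on either strand in Echs1. Echs1 thus holds both the half-site and GC boxes and Acadm a half-site near the far end of its window, and a match is a description, not a bound site.
Acadm: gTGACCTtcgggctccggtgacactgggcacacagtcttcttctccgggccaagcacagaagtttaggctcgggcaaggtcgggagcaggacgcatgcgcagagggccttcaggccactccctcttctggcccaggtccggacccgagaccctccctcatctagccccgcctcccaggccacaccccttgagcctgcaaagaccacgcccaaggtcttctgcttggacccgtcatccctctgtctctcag
Etfdh: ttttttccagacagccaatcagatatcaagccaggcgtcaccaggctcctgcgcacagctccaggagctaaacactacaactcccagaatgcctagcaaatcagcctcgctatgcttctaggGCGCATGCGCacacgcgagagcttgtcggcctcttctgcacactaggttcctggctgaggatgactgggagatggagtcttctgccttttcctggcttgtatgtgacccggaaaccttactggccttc
Echs1: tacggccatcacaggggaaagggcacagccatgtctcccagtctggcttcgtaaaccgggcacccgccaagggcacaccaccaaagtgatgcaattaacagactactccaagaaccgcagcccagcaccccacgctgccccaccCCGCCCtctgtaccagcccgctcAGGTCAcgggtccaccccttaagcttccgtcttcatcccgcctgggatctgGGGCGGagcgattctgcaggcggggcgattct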

How the data were processed

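RNA of 6 mouse livers was sequenced in pairs on a DNBseq instrument after TRIzol extraction, per the labels' protocols, and poor or short reads were removed. The submitters' processing notes name GRCm38.p6 as build, with featureCounts, cutadapt and MultiQC as tools. Their versions, the aligner, annotation and strand setting are not given here. The authors deposited, per the file headers, a read count, an FPKM and a TPM per gene and library. The deposited counts are estimated counts, since 1165 of 16123 genes held fractional values (tolerance 0.001). Those of the 10 members were whole. The 6 columns of averages were not used.

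Counts were rounded and fitted with edgeR 4.0.16 (R 4.3.3, TMM, quasi-likelihood F test, two-sided, no covariates) over the 10266 genes whose FPKM averaged 1 or more, and p-values were adjusted by Benjamini-Hochberg over all of them. The standard error is the log2 fold change over the square root of F. Alternatives used limma 3.58.1, with pseudocounts of 1 and 0.1 on FPKM and 1 on TPM, and DESeq2 1.42.0. On simulated data for exercise against sedentary over 10266 genes, edgeR recovered 22% of genes changed 1.1-fold, 68% at 1.25-fold and 98% at 1.5-fold, and 7.69% of its calls were unchanged genes. The simulation changed 50 genes at each fold size and took its spread from these same libraries. In the data 38.1% of tested genes were called, so these rates may not hold there. Nor can they speak to variation between other animals. Gene positions and promoters are from the RefSeq tables of GRCm38.p6, matched by gene ID.

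The members, lists and tests were chosen with earlier results of these data known. The rule for named genes took every member, up to 4 genes with the smallest p in each other list, and the 5 genes most alike in profile. Genes named outside it, among them Etfb, Cpt2, Ppara, Ppargc1a and those that complete a count, were chosen after their values were seen. Some results of the lists are not reported here.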

Additional observations from a re-analysis of the deposited data

How the results depend on the processing

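The 9 spiral genes called higher in exercise kept that call in 17 of 19 alternatives and their direction in all 19. They numbered 0 against a 1.2-fold change and 0 at an assumed biological variation of 0.1, where all tested genes called numbered 653 and 722. Other lists also lost calls in both of these settings. The peroxisomal list then had 2 higher and 0 lower. Regulators had 0 and 1, propionyl-CoA disposal 0 and 1, and mitochondrial content and the citric acid cycle 0 and 0. Leaving out 1 library gave 3419 to 3507 genes called. DESeq2 called 2512 genes where edgeR with TMM called 3913. The median log2 fold change of the members was 0.22 without TMM (0.2234), 0.18 with the 20 most abundant genes kept out of the totals (0.1804), 0.25 on log2(TPM + 1) (0.2534), and 0.2187 and 0.2199 by limma on FPKM with pseudocounts of 1 and 0.1, where the medians of all tested genes were 0.0771, 0.0341, 0.0956, 0.0626 and 0.0711. With 1 library left out the median of the members ran from 0.1418 to 0.1635 and the number called higher stayed at 9. Among the named genes, 5 changed sign in at least 1 alternative. Echs1 was positive in 5 of 19, reaching 0.0839 on log2(TPM + 1), Etfb in 9, with 0.0724 and a call without TMM, Etfrf1 in 5, Rfk in 4 and Fh1 in 1, on log2(TPM + 1) (0.0286). For Echs1 the positive fits were those without TMM, with the 20 most abundant genes kept out of the totals, and by limma on TPM and FPKM. For Rfk they were those without TMM and by limma on TPM and FPKM. The median of all tested genes was above 0 in these fits, as given above. The cause of the sign changes was not tested further.

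Replicate numbers did not pair the libraries. Deviations from the group means of same-numbered libraries correlated at -0.0269, 0.00162 and 0.0266 over 8829 genes. With a replicate block the spiral still had 9 genes higher, with a median of 0.1455, and 1929 genes were called higher and 1917 lower. Acad12 was no longer called under the block (adjusted p = 0.0552).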
